A study of Drosophila melanogaster with 23 samples.

Results

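The 3 genes described here are *CG1571* (FBtr0071106), *CG4318* (FBtr0073742) and *Rpt6R* (FBtr0085680). In control wing discs *CG1571* and *Rpt6R* were near the low end of the array's signal, and *CG4318* was dim but less so. In *Myb* mutant wing discs all 3 were far brighter. *CG1571* and *CG4318* were bright for the array, and *Rpt6R* was nearer its middle, with 54.7% of tested transcripts dimmer. They are 3 of the 21051 transcript rows on the array. No other row was identified for any of them, but only 1999 rows, those ranked first by p-value, had a name. A further row of these genes without a name would not be seen. They were chosen by their rise in the mutant on these same arrays, so the difference between the genotypes is given as a description, with no test. *CG1571* and *CG4318* lie on the X chromosome and *Rpt6R* on 3R.

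RNA came from wing imaginal discs, the larval epithelia that form the adult wing and thorax, of male *Drosophila melanogaster* larvae at the third instar. The mutant larvae carried *Myb* MH107, an allele made by mobilizing a P element with Delta2-3 transposase. It removes the start of *Myb* and the neighbouring gene *AlkB*, and animals carrying it die as early pupae. The controls were males of the *yw67* stock, with yellow body and white eyes, and the mutant had been outcrossed into this line. The mutant chromosome also carries a *white* allele (*w1118*), so both genotypes are mutant for *white*. Because *Myb* is X-linked, the mutant males had no other copy of the gene, and they were picked as larvae lacking the GFP of the balancer chromosome. Each genotype had 3 biological replicates hybridized to 12 mutant and 11 control arrays, at 4 arrays per replicate and 3 for control replicate 3. Whether the replicates were separate pools of larvae is not stated in the labels beyond the word biological.

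Flies have 1 gene of the Myb family of transcription factors, and its protein sits in a complex known both for activating cell cycle genes and for keeping other genes silent. The proteasome is the particle that degrades proteins marked with ubiquitin. Its regulatory cap holds a ring of ATPases, the Rpt proteins, which unfold the substrate and feed it into the core. Flies carry additional copies of several proteasome genes, and copies of this kind are known for expression in the male germline. *Rpt6R* is such a copy of *Rpt6*, an ATPase of the ring. The files and the annotation give no role for *CG1571* and *CG4318*, and none is assigned here.

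The study designed PCR primers for each of the 3 genes, which give the only sequence for them in the sources used here. They are printed to fix which loci the names refer to, each in the 5′ to 3′ direction and in lower case, since no stretch is singled out. No value in this text was measured with them, and their positions were not mapped.

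*CG1571*, X chromosome, amplicon for histone marks, forward: gccgacagtttatgacccag

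*CG1571*, X chromosome, amplicon for histone marks, reverse: cttgctgtcgtaggtgatcc

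*CG1571*, X chromosome, site between *Upf2* and *CG1571*, forward: accatggactaaacaggtgc

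*CG1571*, X chromosome, site between *Upf2* and *CG1571*, reverse: taaataagaaaatccaactaagcatattcg

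*CG4318*, X chromosome, amplicon for reverse transcription PCR, forward: ggcaaatggtcttgggaaaag

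*CG4318*, X chromosome, amplicon for reverse transcription PCR, reverse: ctgtttgagggagatggagaac

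*Rpt6R*, 3R, amplicon for histone marks, forward: catttctctgagcctgcaaac

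*Rpt6R*, 3R, amplicon for histone marks, reverse: ccagatgagcaaagacgtagg

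Signals are linear intensities after robust multichip analysis (RMA), a method that corrects the background, gives all arrays the same distribution and combines the probes of a transcript. Replicate values are geometric means of their arrays, and changes are mutant minus control on the log2 scale. Precision is limited by how many arrays and replicates there were. Over the 16637 transcripts whose values were not 1 constant, array medians ran from 996 to 1060, a likeness that the normalization itself sets. Signals of different genes are not compared as RNA amounts, since each row has its own probes. In whole discs, fewer expressing cells and less RNA per cell cannot be told apart.

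The labels were checked on the genes the allele removes. *Myb* (FBtr0074169) measured 4586, 4929 and 4717 in the mutant replicates and 15216, 15119 and 16233 in the control replicates. The change was -1.71 (SE 0.06, limma with Benjamini-Hochberg adjustment, p = 3.54e-05, and 0.00171 with the replicate number as a block). *AlkB* (FBtr0074168) fell from a mean of 667 in the control to 48.6 in the mutant. Both fell, as the labels call for.

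*CG1571* measured 8217, 8369 and 8297 in mutant replicates 1, 2 and 3. In control replicates 1, 2 and 3 it measured 62.8, 45.7 and 56.6. The mutant replicates were nearly equal, and every one of them was more than 100 times the brightest control replicate. Across single arrays the lowest, median and highest signals were 7652, 8336 and 8897 in the mutant and 41.7, 60.0 and 66.7 in the control. On the log2 scale the means were 13.02 ± 0.01 (SD, n = 3) and 5.77 ± 0.23 (SD, n = 3), a change of 7.25 or 152-fold. The ratio of a mutant to a control replicate ran from 131-fold to 183-fold over the 9 possible pairs, and its spread came almost wholly from the control side.

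*CG4318* measured 7396, 7062 and 6665 in the mutant replicates. In control replicates 1, 2 and 3 it measured 142, 96.3 and 110. The groups did not overlap, and the spread between replicates was the widest of the 3 genes in both genotypes. Across single arrays the lowest, median and highest signals were 5996, 7204 and 7830 in the mutant and 85.7, 121 and 149 in the control. The log2 means were 12.78 ± 0.08 (SD, n = 3) and 6.84 ± 0.29 (SD, n = 3), a change of 5.94 or 61.3-fold. Single pairs of replicates gave ratios between 46.8-fold and 76.8-fold.

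*Rpt6R*, the proteasome ATPase copy, measured 1594, 1614 and 1648 in the mutant replicates. In control replicates 1, 2 and 3 it measured 49.3, 48.0 and 54.0. The mutant replicates lay within 1.03-fold of each other and the control replicates within 1.12-fold. Across single arrays the lowest, median and highest signals were 1470, 1592 and 1854 in the mutant and 40.8, 48.6 and 63.6 in the control. The log2 means were 10.66 ± 0.02 (SD, n = 3) and 5.65 ± 0.09 (SD, n = 3), a change of 5.01 or 32.2-fold, with pairs of replicates between 29.5-fold and 34.3-fold. Its rise was the smallest of the 3 and the least variable between pairs of replicates.

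**Figure D1:**
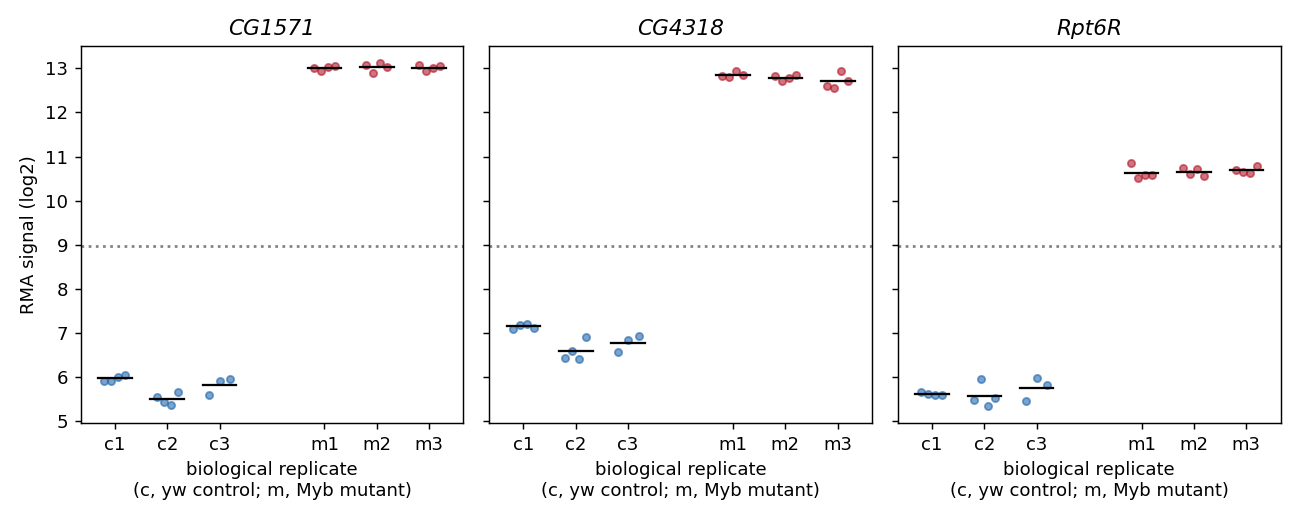
RMA signal (log2) of each gene on every array, grouped by biological replicate (c, *yw67* control, blue; m, *Myb* mutant, red), with the replicate mean as a black bar and the signal of 500 as a dotted line. All 12 mutant arrays of each gene lie above 500 and all 11 control arrays lie below it.

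In each of the 3 genes all mutant replicates were above all control replicates. That held for 14.6% of the 16637 tested transcripts, and since the genes were chosen on this contrast nothing is read from it. The rises ranked 2, 4 and 8 among all tested transcripts for *CG1571*, *CG4318* and *Rpt6R*. The median change over all tested transcripts was -0.01.

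The control signals of *CG1571* and *Rpt6R* were close to the dim end of the table, and that of *CG4318* was less so. The lowest value in the table is 14.158, which 4414 rows hold on every array, and the lowest control mean among tested transcripts was 31.9. *CG1571* and *Rpt6R* in the control stood at 3.85 and 3.56 times that constant, and *CG4318* at 8.10 times. Of the tested transcripts, 8.44% were dimmer in the control than *CG1571*, 5.51% were dimmer than *Rpt6R* and 31.4% were dimmer than *CG4318*. A control signal under 100 was common, with 4817 tested transcripts there. In the mutant, by contrast, 81.7% of tested transcripts were dimmer than *CG1571*, 78.3% dimmer than *CG4318* and 54.7% dimmer than *Rpt6R*. These shares rank signals on the array and are not amounts of RNA.

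Transcripts that began at the same dim level mostly stayed there. Between the control signals of *Rpt6R* and *CG4318* lay 4309 other tested transcripts, whose median change was -0.04, with 5th and 95th percentiles of -0.46 and 0.50. Only 33 of these reached a signal of 500 in the mutant, and 11 reached the level of *Rpt6R*. Detection flags were not analysed here, so the control values of the 3 genes cannot be separated from the background of their probes, and the folds rest on how that background was set. With all signals under 100 set to 100, the folds became 82.9 for *CG1571*, 59.3 for *CG4318* and 16.2 for *Rpt6R*.

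**Figure D2:**
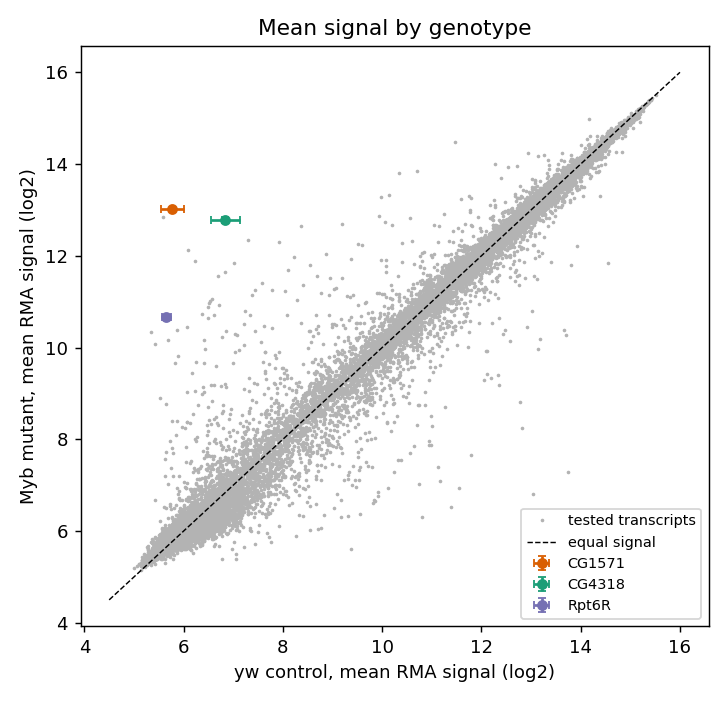
Mean RMA signal (log2) in the *yw67* control (horizontal) and the *Myb* mutant (vertical) for 16637 tested transcripts (grey) and the 3 genes (colored, bars show SD over 3 replicates). The 3 genes lie far above the line of equal signal, with control means of 5.77, 6.84 and 5.65 and mutant means of 13.02, 12.78 and 10.66 for *CG1571*, *CG4318* and *Rpt6R*.

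The replicate spread differed between the genotypes. In the mutant, the SD of the 3 replicate means was 0.013 (log2) for *CG1571*, where the median of 4280 transcripts within 1 log2 unit of its mutant signal was 0.096, and 98.2% of those had a larger SD. For *Rpt6R* the SD was 0.024 against a median of 0.153 over 2738 such transcripts, and 96.6% had a larger one. *CG4318* was more ordinary, at 0.075 against 0.098 over 4360 transcripts, of which 62.6% had a larger SD. Because small SDs helped to place these genes high in a ranking by p-value, the shares describe them and test nothing.

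Arrays of 1 replicate varied by more than the replicate means did in the mutant. The SD between arrays of a replicate, pooled over the 3 mutant replicates, was 0.072 for *CG1571*, 0.110 for *CG4318* and 0.106 for *Rpt6R*. Noise of that size alone would give replicate means an SD of 0.036, 0.055 and 0.053. The measured SDs of 0.013 and 0.024 for *CG1571* and *Rpt6R* were below these values, and that of *CG4318*, 0.075, was above it. Differences between the mutant replicates in *CG1571* and *Rpt6R* were therefore not detectable at this number of arrays. In *CG4318*, mutant replicate 3 held both the lowest and the highest of the 12 arrays, at 5996 and 7830.

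In the control, the spread of *CG1571* and *CG4318* was wider than that of their arrays. Their SDs between replicates were 0.234 and 0.286, where array noise alone would give 0.079 and 0.093. Control replicate 1 was the highest in both, by 0.20 and 0.31 over the control mean, and control replicate 2 the lowest, by -0.26 and -0.25. Spreads of this size were common among dim transcripts. Within 1 log2 unit of its control signal, the median SD was 0.149 for *CG1571*, and 28.1% of 5086 transcripts had a larger SD. For *CG4318* the median was 0.212, and 35.0% of 4676 had a larger one. *Rpt6R* had a control SD of 0.089, below the 0.119 that array noise would give, where the median of 4835 like transcripts was 0.145 and 72.1% had a larger SD.

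**Figure D3:**
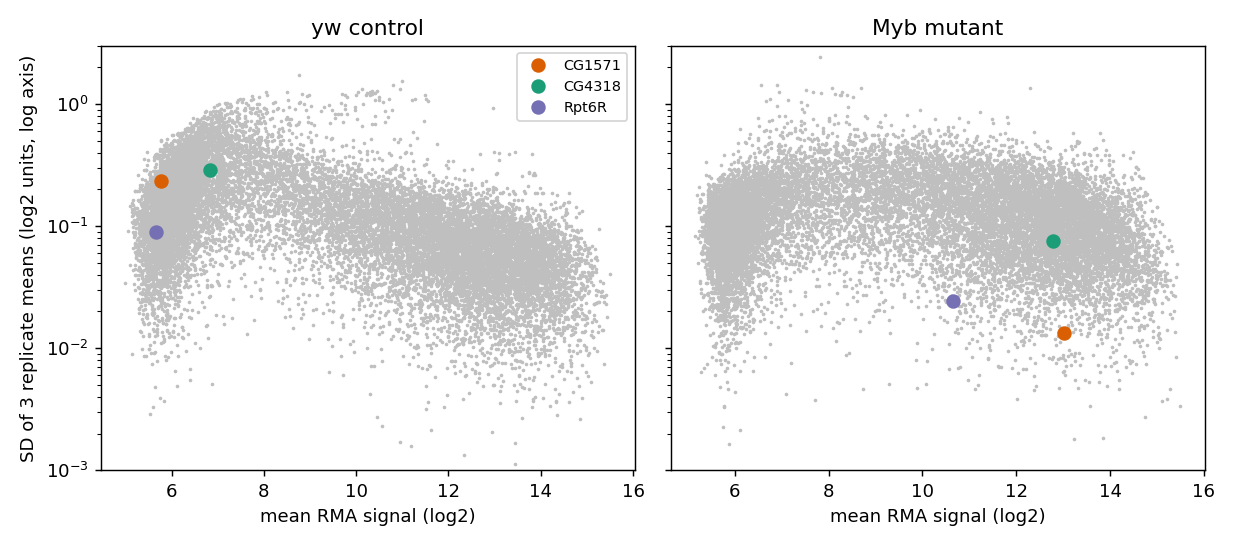
SD of the 3 replicate means (log2 units, log axis) against mean RMA signal (log2) in the *yw67* control (left) and the *Myb* mutant (right), for tested transcripts (grey) and the 3 genes (colored). In the mutant *CG1571* and *Rpt6R* lie near the lower edge, at 0.013 and 0.024, and *CG4318* lies within the cloud at 0.075.

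The genes whose pattern was closest were found by the Euclidean distance between log2 profiles over the 6 biological replicates, each centred on its own mean. This distance takes in the size of the rise, and its values are descriptions. Closest to *CG1571* was *CG12698* (FBtr0074139, X) at a distance of 0.29, with signals of 7610, 7236 and 7091 in the mutant and 48.2, 45.7 and 49.3 in the control. Next were *swa* (swallow, X), which localizes RNA in the oocyte, at 1.58, and *CG4318* at 1.62. *CG12698* was thus much closer than any other gene with a name.

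Closest to *CG4318* was *swa* (FBtr0070922) at 0.54, with 4538, 4450 and 4353 in the mutant and 68.7, 76.3 and 61.0 in the control. It was followed by *w* (white, X), the eye pigment transporter, at 0.77 and *Ir76a* (FBtr0074878, 3L), an ionotropic receptor gene, at 1.14. Both genotypes carry mutant alleles of *w*.

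*Rpt6R* had the closest companions of the 3. *Muc14A* (FBtr0074205, X), a mucin gene, lay at 0.23, with 1353, 1369 and 1194 in the mutant and 39.1, 41.4 and 40.6 in the control. Another *Ir76a* transcript (FBtr0074876) lay at 0.26 and *CG11668* (FBtr0082705, 3R) at 0.46. Among themselves the 3 genes were further apart, at 1.22 for *CG4318* and *Rpt6R*, 1.62 for *CG1571* and *CG4318* and 2.76 for *CG1571* and *Rpt6R*. Pearson's r over the 6 replicates separated little, because any transcript with a clean step between genotypes scores high. It exceeded 0.99 in 136, 112 and 155 other transcripts for *CG1571*, *CG4318* and *Rpt6R*.

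**Figure D4:**
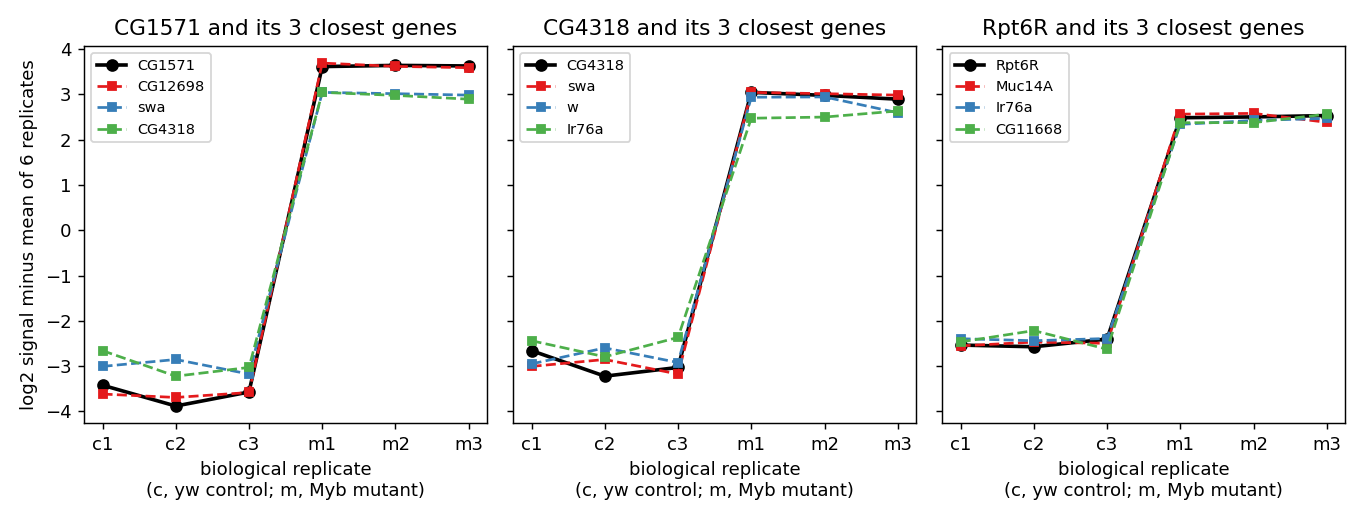
Log2 signal minus the gene's mean over the 6 biological replicates (vertical) in each replicate (c, *yw67* control; m, *Myb* mutant) for each gene (black) and the 3 genes closest to it (colored, dashed). Lines join replicates only to guide the eye. *CG12698* runs close to *CG1571* and *Muc14A* close to *Rpt6R*, at distances of 0.29 and 0.23.

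Other genes of the proteasome were examined beside *Rpt6R*. A gene was called when a transcript of it had a limma adjusted p under 0.001 over all tested transcripts and reached a signal of 500 in 1 or more biological replicates. Of tested transcripts 1.41% met this (0.787% higher and 0.619% lower). Gene names were at hand for 1999 rows, those the study ranked first by p-value. All 234 called transcripts had a name, so a list member without a named row was not called, but its size of change is not known here. Of 33 genes for the standing subunits of the proteasome, 0 were called by limma and 0 by the methods' t-test, run here on the 6 replicate means. Only *Rpn11*, the deubiquitinase of the cap, had a named row, and it was the 1 gene known to have an unadjusted p under 0.05. *Rpn11* (FBtr0079027) measured 16114, 15783 and 16182 in the mutant and 14401, 13443 and 14836 in the control. The groups did not overlap, and the change was 0.17 (SE 0.06, limma adjusted p = 0.176). None of the 6 standing ATPases of the ring, *Rpt6* included, had a named row. Probe sequences were not analysed, so cross-hybridization between *Rpt6* and *Rpt6R* was not tested.

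No other proteasome copy was called. Of the 14 besides *Rpt6R*, 0 were called by limma, against 1.41% of tested transcripts, and 0 by the methods' t-test. Among them 1, *Rpt3R*, had a named row and an unadjusted p under 0.05. *Rpt3R*, a copy of the ATPase gene *Rpt3*, has 2 rows. The first (FBtr0082164) measured 79.7, 76.2 and 90.2 in the mutant and 331.8, 288.0 and 339.1 in the control. Its change was -1.96 (SE 0.10, limma adjusted p = 0.000115). The second (FBtr0082165) measured 61.0, 62.5 and 66.7 in the mutant and 158.0, 187.2 and 199.5 in the control, and its change was -1.51 (SE 0.10, limma adjusted p = 0.000356). Both rows differed in the direction opposite to *Rpt6R*. Neither reached the signal minimum of 500, so *Rpt3R* was not called, and with the replicate number as a block the adjusted p were 0.00114 and 0.00264.

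Genes of the male germline were listed because copies of proteasome genes are known there. Of 30 testis differentiation genes, 0 were called by limma, against 1.41% of tested transcripts, and 0 by the methods' t-test. The 3 with a named row all had an unadjusted p under 0.05. These were *mia*, *topi* and *bol*. Rows were named through a ranking by p-value, so nothing is read from all 3 having a small p. *mia*, a testis TAF gene, changed by 0.18 (SE 0.06, limma adjusted p = 0.153). Its signal in these wing discs was 4850 in the mutant and 4281 in the control, above the highest array median of 1060. *topi*, a gene of the testis transcription complex, changed by -0.75 (SE 0.13, limma adjusted p = 0.0192), at 64.4 in the mutant and 108 in the control. The RNA-binding protein gene *bol* had 2 rows, with means of 736 and 768 in the mutant and 1473 and 1596 in the control (adjusted p = 0.0155 and 0.0103).

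Of 14 germline genes 3 were called higher and 2 lower, against 0.787% and 0.619% of tested transcripts. The list was drawn up with earlier results of these arrays known. It holds mostly genes of the piRNA pathway, which silences transposons in the germline. All 5 act in that pathway, and nothing is read from this. The changes were 1.19 (SE 0.08) for *del*, 2.03 (SE 0.12) for *krimp* and 2.56 (SE 0.12) for *tej*, and -1.30 (SE 0.08) for *shu* and -1.75 (SE 0.09) for *vret*, with limma adjusted p between 8.54e-05 and 0.000427. With the replicate block 0 of these were called, and with 1 replicate left out 0 to 5 testis and germline genes were, with 0 left without mutant replicate 1. *vas*, the germline helicase, measured 183, 179 and 278 in the mutant and 54.0, 55.2 and 55.5 in the control. Its change was 1.93 (SE 0.17, adjusted p = 0.00129), and it stayed under the signal minimum. The summed signal of the list was 9710 to 10328 in the mutant and 6217 to 6695 in the control over the 8 genes with a named row.

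The chromosomal neighbours of the 3 genes were taken as the 3 genes on either side in the RefSeq annotation (Release 6). Of these 18 genes limma called 0, against 1.41% of tested transcripts, and the methods' t-test called 0. The 4 with a named row all had an unadjusted p under 0.05. Under the looser threshold of 0.05, which 3.43% of tested transcripts met as higher, 3 were higher and 0 lower, and all 3 lay near *CG4318*. At that threshold 4 of the 1066 transcripts called had no name. Rows were named through a ranking by p-value, so the 4 are not a fair sample of the 18.

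*CG32645*, the gene directly before *CG4318*, measured 2463, 2312 and 1934 in the mutant and 595, 851 and 477 in the control. The change was 1.84 (SE 0.22, limma adjusted p = 0.00426), and the gene was called without control replicate 2, its highest control. The 2 genes overlap by 2 bases in the annotation, whose build may differ from that of the array, and double-stranded cDNA keeps no record of strand. Signal that runs from one gene into the other can therefore not be told apart from signal of each. *MFS10*, the gene before *CG32645*, changed by 0.40 (SE 0.06, adjusted p = 0.0137), and *CG12096*, the third gene after *CG4318*, by 0.60 (SE 0.07, adjusted p = 0.00371). These 3 changes were smaller than the 5.94 of *CG4318*, and its other 3 neighbours had no named row.

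*Ldsdh1*, the gene directly after *CG1571*, measured 101, 86.7 and 122 in the mutant and 41.2, 47.2 and 40.2 in the control. The change was 1.26 (SE 0.14, limma adjusted p = 0.00299), at signals under the minimum. On the other side of *CG1571* lies *Upf2*, for which no row was identified. None of the 6 neighbours of *Rpt6R* had a named row. *CG1571* and *Rpt6R* overlap no other gene of the annotation.

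Some markers of other cell types differed with genotype, and their part in the signal of the 3 genes was not tested. The lists were chosen with earlier results of these data known, so nothing is read from how many genes were called. Limma called 1.41% of tested transcripts, and the methods' t-test called 17 transcripts. In lists this short, 0 calls are near those shares. Of 8 blood cell genes 6 were called lower, against 0.619% of tested transcripts, and 7 had a named row. With the replicate block, which called 61 of the 16637 transcripts, 3 were called. The summed signals of the list were 2979 to 3646 in the mutant and 47495 to 59507 in the control. The 6 were *Hml*, *NimC1*, *Pxn*, *srp*, *PPO1* and *PPO2*, with changes from -2.85 in *srp* to -6.46 in *PPO2*. Of 6 fat body genes limma called 0 and the methods' t-test 0. The 5 with a named row all had an unadjusted p under 0.05. They were also higher at an adjusted p under 0.05 and a signal of at least 500, which 3.43% of tested transcripts met as higher. With the replicate block their limma adjusted p ran from 0.0357 to 0.0571, so not all 5 stayed under 0.05. Their sums were 46575 to 92170 in the mutant and 4317 to 11982 in the control. Of 4 tracheal genes 1, *btl*, was called lower (0 with the replicate block), against 0.619% of tested transcripts. At the looser threshold of 0.05, which 496 of the 16637 transcripts met as lower, 2 were lower. The sums for the tracheal genes were 508 to 632 in the mutant and 1087 to 1208 in the control. Of 5 genes of disc muscle precursors 0 were called by limma or the methods' t-test. At the looser threshold 2 were lower, and 3 had an unadjusted p under 0.05. Their sums were 24980 to 29724 in the mutant and 33084 to 37007 in the control. Of 20 wing disc genes 1, *eyg*, had a named row, at 7977 in the mutant and 9486 in the control (limma adjusted p = 0.105), so the tissue label could be checked on that gene alone. Of 15 genes of other tissues 3 had a named row and an unadjusted p under 0.05, and limma and the methods' t-test called 0. The sums of these 3 were 528 to 577 in the mutant and 576 to 696 in the control. Since rows were named through a ranking by p-value, nothing is read from small unadjusted p in the named rows of these lists.

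The change of each gene was recomputed under 14 other settings. *CG1571* ranged from 6.31 to 7.37, *CG4318* from 5.42 to 6.09 and *Rpt6R* from 4.02 to 5.23, and the order of the 3 was the same under each setting. With 1 replicate left out the changes were 7.12 to 7.35, 5.81 to 6.09 and 4.97 to 5.06. The lower ends came from the settings that raise dim signals, which act on the control side.

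**Figure D5:**
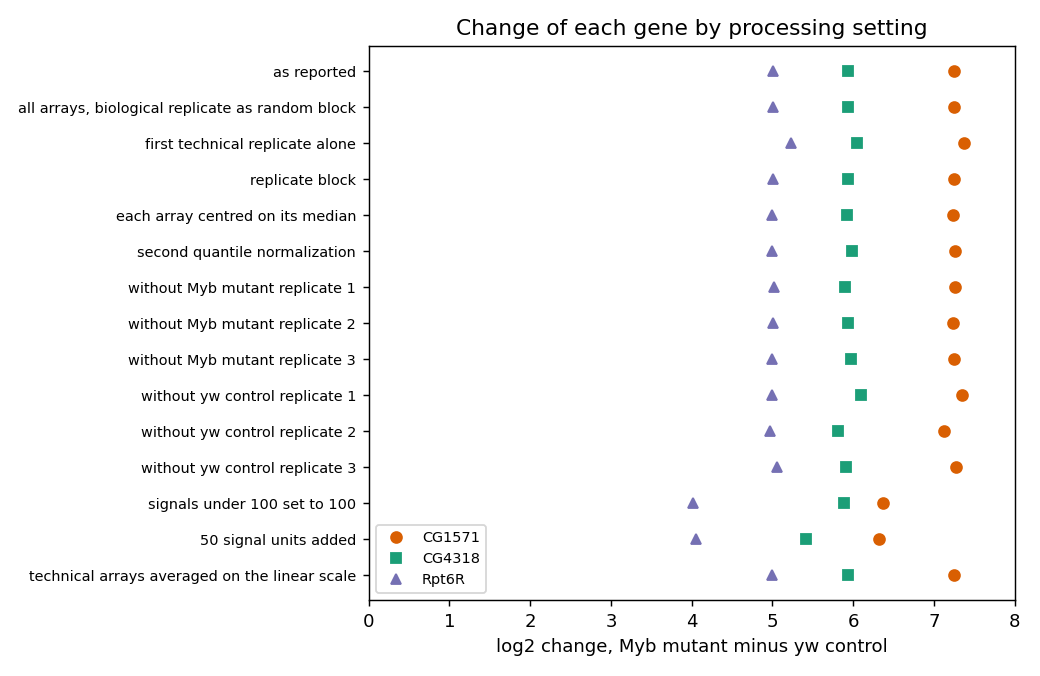
Log2 change (*Myb* mutant minus *yw67* control, horizontal) of each gene as reported and under 14 other settings (vertical). For *CG1571* and *Rpt6R* the settings that raise dim signals lie furthest to the left, down to 6.31 and 4.02. For *CG4318* only the setting with 50 signal units added does, at 5.42.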

How the data were processed

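The members and gene lists were chosen with earlier results of these data known. Per the study's methods, double-stranded cDNA made with random primers was labelled with Cy3 and read on NimbleGen one-color arrays, and the authors applied RMA in ArrayStar (background correction, quantile normalization, median polish). The deposited values were linear signal intensity, 1 per transcript and array. The array's genome build is not given in the sources used here, and slide and scan were not analysed. Of 21051 rows, 4414 held 1 constant value and were left out. No column of per-sample values was left unused (0 columns).

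Genotype, biological and technical replicate came from the sample titles. The design text and the titles both give 1 control replicate with 3 arrays. Signals were converted to log2 and averaged within each biological replicate (R 4.3.3). The 6 means were fitted across all 16637 transcripts with lmFit and eBayes (limma 3.58.1), two-sided, with Benjamini-Hochberg adjustment. Calls needed an adjusted p under 0.001 and a signal of at least 500, as in the study's methods. Other settings, set out in the closing section, included the methods' t-test (on the 6 means, since its input is not given in the sources used here), all arrays with a random block (statmod 1.5.0) and each replicate left out. The p-values set the difference between genotypes against the spread between these replicates.

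Mutant and control replicates of the same number deviated together, with correlations of 0.20, 0.18 and 0.28, each over 0.1, which was taken as pairing, although the labels name no shared source. The replicate block is given where it changes a call.

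Names came from a study sheet (1999 rows, 1768 genes, identity only), and 98.0% of the rows matched RefSeq. Its columns of the authors' means, folds and p-values were not used. Genes were named by rule: the 3 genes, for each the 3 with the closest profile, the proteasome ATPases and copies, identified neighbours, and called members of other lists. *Rpn11*, *mia*, *topi*, *bol*, *vas* and *eyg* fall outside that rule and were named after their values were seen.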

Additional observations from a re-analysis of the deposited data

How the results depend on the processing

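The direction of all 3 rises was the same under the 14 settings tried. Signals under 100 set to 100 gave changes of 6.37 for *CG1571* and 4.02 for *Rpt6R*, against 7.25 and 5.01. With 50 signal units added the changes were 6.31, 5.42 and 4.05 for *CG1571*, *CG4318* and *Rpt6R*. The first technical replicate alone gave 5.23 for *Rpt6R*. The other settings moved each change by less than the SD between control replicates, the larger of its 2 SDs. Calls over all transcripts were 1066 at an adjusted p under 0.05, 17 by the methods' t-test on the 6 means, adjusted, 1184 with all arrays and a random block, 61 with the replicate block, and 940 with the replicate block at 0.05, a setting added after seeing the data. The higher and lower calls were 131 and 103 as reported, 16 and 1 by the methods' t-test and 43 and 18 with the replicate block. Leaving out 1 replicate gave 70 to 317 calls. The calls were 70, 71 and 121 with mutant replicate 1, 2 or 3 out, and 106 and 100 with control replicate 1 or 3 out. Testis and germline genes called were 5 as reported, 0 by the methods' t-test, 0 with the replicate block, and 0 to 5 with 1 replicate left out. These were 0, 1 and 3 with mutant replicate 1, 2 or 3 out, and 1 with either control replicate 1 or 3 out. Neighbours called were 3 at 0.05, 3 with all arrays, 3 with the replicate block at 0.05, and 0 to 1 with 1 replicate left out (1 without control replicate 2). Without the signal minimum 1 other proteasome copy, *Rpt3R*, was called lower. The cause of these differences was not tested, beyond the threshold, the number of samples and the minimum that define the settings. Among named rows of standing proteasome subunits 0 were called in each of these settings. The limit on the 3 folds is the dim control signal.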

Other observations

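The highest or lowest of the 4 arrays of a biological replicate was compared with its group by Dixon's ratio in 15 groups of the 3 genes. None exceeded the 95% critical value for 4 arrays. The ratio nearest to it, 0.791, was that of *Rpt6R* in mutant replicate 1, where 1 array measured 1854 and the others 1470 to 1544.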
